A study of Mus musculus with 2 samples.

Results

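Open chromatin was described around Cyp11b1 and Cyp11b2, the neighbouring mouse genes for the last enzymes of corticosterone and aldosterone synthesis. These are 2 of 21911 protein-coding genes, taken by name from the GENCODE M21 basic annotation of assembly mm10. The stretch examined reached 50 kb beyond their joint span on either side and covered chr15:74784125-74906318, a length of 122.194 kb. It held 12 of 117371 deposited DNase I peaks in replicate 1 and 21 of 146307 in replicate 2. DNase-seq maps accessible DNA by treating nuclei with DNase I, which cuts where chromatin is open, and sequencing the released fragments. The study holds 1 group with 2 replicates, each a single library from a pool of 6 adrenal gland biosamples. All material was whole gland from male B6CASTF1/J mice, the F1 cross of C57BL/6J and CAST/EiJ, aged 8 to 10 months. Both pools carry the same donor identifier, and how many animals contributed is not stated in the sources used here, so the spread between pools may be technical. There was no treatment and no second group, so every result is a value in each pool without a test.

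Cyp11b1 encodes 11β-hydroxylase, a mitochondrial cytochrome P450 that makes corticosterone, the main glucocorticoid of the mouse, in the zona fasciculata of the adrenal cortex. Cyp11b2 encodes aldosterone synthase, which makes the mineralocorticoid aldosterone in the zona glomerulosa, the thin outer zone. The genes arose by duplication and lie in tandem. Pituitary corticotropin is the main drive to glucocorticoid synthesis, and angiotensin II and potassium drive aldosterone synthesis.

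The tissue label was checked against marker genes by promoter peaks, meaning a peak within 1 kb of an annotated transcription start site (TSS). Over all protein-coding genes, 61.9% had such a peak in both pools, and lists this short were not tested against that share. Of 7 adrenal cortex markers 6 had such a peak in each pool, as did 5 of 6 chromaffin cell markers of the medulla. The remaining one, Pnmt, had a peak in replicate 2 alone. Peaks in both pools were found at 0 of 4 kidney tubule markers, 1 of 4 hepatocyte markers, 1 of 4 gonadal markers, 1 of 4 macrophage markers and 2 of 4 endothelial markers. For the zona glomerulosa the count was 5 of 7, among them Dab2, an endocytic adaptor, at signals of 2.76 and 4.10, and the angiotensin receptor gene Agtr1a at 2.58 and 3.67. Weaker in the same list were Kcnk3 at 2.01 and 2.17, Hsd3b6 at 0.639 and 0.967, and Agtr1b at 0.520 and 0.576. Agtr1b was below the median of all peaks, 0.699 and 0.727. The summed promoter signal of that list was 8.51 in replicate 1 and 11.5 in replicate 2, against 21.2 and 24.3 for the cortex list. The glomerulosa markers without a promoter peak were Cyp11b2 itself and the potassium channel gene Kcnk9. Signal here is the authors' value per peak. Its scaling is not stated and the depth of the libraries is unknown.

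Both genes are transcribed from the minus strand and have 9 exons each. Cyp11b1 (ENSMUSG00000075604.5) spans chr15:74834125-74841643 and Cyp11b2 (ENSMUSG00000022589.7) spans chr15:74851010-74856318. Their TSSs lie 14675 bp apart. Since Cyp11b2 stands upstream of Cyp11b1, distances below are counted from the TSS named, and negative values are upstream of it.

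The TSS of Cyp11b1 was open in both pools. The peak over it, chr15:74841641-74841960, reached 3.47 in replicate 1 and 4.01 in replicate 2 (3.74 ± 0.384, SD, n = 2). It was stronger than 93.5% and 93.7% of all peaks of its pool. A peak at the promoter in each pool was found for 61.9% of protein-coding genes, so its presence does not set Cyp11b1 apart. Its signal was higher than at 56.3% and 52.1% of the promoters that had a peak. The peak began 3 bp inside exon 1 and otherwise covered sequence upstream of the TSS. The lowest deposited false discovery rate (FDR) of cleavage in the peak was 1.69e-11 in replicate 1 and 1.43e-08 in replicate 2. Replicate 1 listed 4 footprints there, short protected stretches inside open DNA, and replicate 2 listed 3, but 0 of them overlapped between pools. The promoter peak was therefore repeated in position and signal, while no footprint within it was.

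A smaller peak stood upstream of Cyp11b1, with its midpoint at -1.057 kb (chr15:74842541-74842859). It reached 2.05 in the former pool and 2.33 in the latter, above 86.4% and 86.7% of all peaks. Part of it is an inverted copy of sequence in and beside the promoter peak. The copies aligned over 175 bp at 82.9% identity, from -961 to -1135 and, on the opposite strand, from -224 to -389. When the genome was searched with each peak's sequence, this copy was the 1 match of at least 60 bp returned outside the peak itself. The stretch of the copies that lies over 250 bp from the TSS is printed below because it is what the neighbouring peaks share, with capitals marking bases that differ or have no partner. The upstream copy is chr15:74842604-74842751 on the minus strand, and the copy nearer the gene is chr15:74841894-74842032 on the plus strand, both in mm10.
Copy in the -1.057 kb peak: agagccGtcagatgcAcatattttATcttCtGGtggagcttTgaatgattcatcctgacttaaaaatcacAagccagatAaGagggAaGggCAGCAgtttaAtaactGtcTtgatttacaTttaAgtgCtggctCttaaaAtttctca
Copy beside the Cyp11b1 TSS: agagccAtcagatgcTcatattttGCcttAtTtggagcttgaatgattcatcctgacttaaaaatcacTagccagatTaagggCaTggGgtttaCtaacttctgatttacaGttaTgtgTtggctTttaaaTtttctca

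Over these stretches 122 of 139 aligned bases were identical. Both copies hold the letters tgattca, which match the AP-1 consensus TGANTCA bound by Fos and Jun proteins. In the upstream copy the match at -1060 overlapped a footprint in both pools. In the copy beside the TSS the match at -297 had no footprint within 10 bp in either pool, and it lay at the edge of the peak of replicate 2. The match was thus present in both copies, and a footprint was listed at the upstream copy alone. Every 32-base word of both peaks was unique in the genome, so their sequences can be told apart at that length.

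The remaining peaks of Cyp11b1 were weaker. A peak over exons 7 and 8 (chr15:74836121-74836560, 5.302 kb downstream of the TSS) had signals of 1.66 and 1.62, and in replicate 2 its span covered exon 8 alone. At the end of the gene a peak with signals of 1.52 and 1.89 touched the untranslated part of exon 9 (chr15:74833936-74834183). Its neighbour at 8 kb downstream of the TSS, inside an intron of Gml2 on the other strand, had signals of 1.49 and 2.36. The exon 9 region was 31.5% repeat-masked and the Gml2 region 25.2%. The genome search returned 42 and 6298 other matches of at least 60 bp for them, while every 32-base word of both was unique. The exon 9 peak was in the shorter deposited peak list of neither pool. Between the exon 7 peak and the promoter, a stretch of 5.08 kb held no peak in either pool.

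No peak was found at the TSS of Cyp11b2 in either pool. A promoter peak was missing in both pools at 33.7% of protein-coding genes, so this is common among genes. Promoters of 500 bp and of 2 kb, and the RefSeq start 87 bp downstream, gave none either, which the distances to the nearest peaks fix in advance. The nearest peak to the TSS lay 13478 bp away in replicate 1 and 4560 bp away in replicate 2, and 80.9% and 74.0% of genes had a nearer one. Upstream of the TSS the nearest peak edge was 17.4 kb away in both pools, against 0.898 and 0.918 kb for the next peak upstream of the Cyp11b1 promoter peak. The TSS of Cyp11b2 sat in a stretch of 21.9 kb without a peak or a footprint in either pool (chr15:74851759-74873680). In whole-gland material, openness in few cells and weak openness in many cells cannot be told apart.

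A trace of cleavage was listed at the Cyp11b2 start in 1 pool. Within 1 kb of its TSS, replicate 1 listed 9 bp with an FDR under 0.05, the lowest being 0.0421, and replicate 2 listed 0 bp. For Cyp11b1 the same counts were 704 and 547 bp. The 9 bp of replicate 1 lay 55 to 65 bp downstream of the Cyp11b2 TSS, around the base, 64 bp downstream, that aligns with the TSS of Cyp11b1. Leaving out 500 bp at either end of the peak-free stretch, those 9 bp were all that replicate 1 listed in it, and replicate 2 listed none. A promoter with no listed base within 1 kb occurred at 35.9% of genes in replicate 1 and 33.8% in replicate 2.

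**Figure D1:**
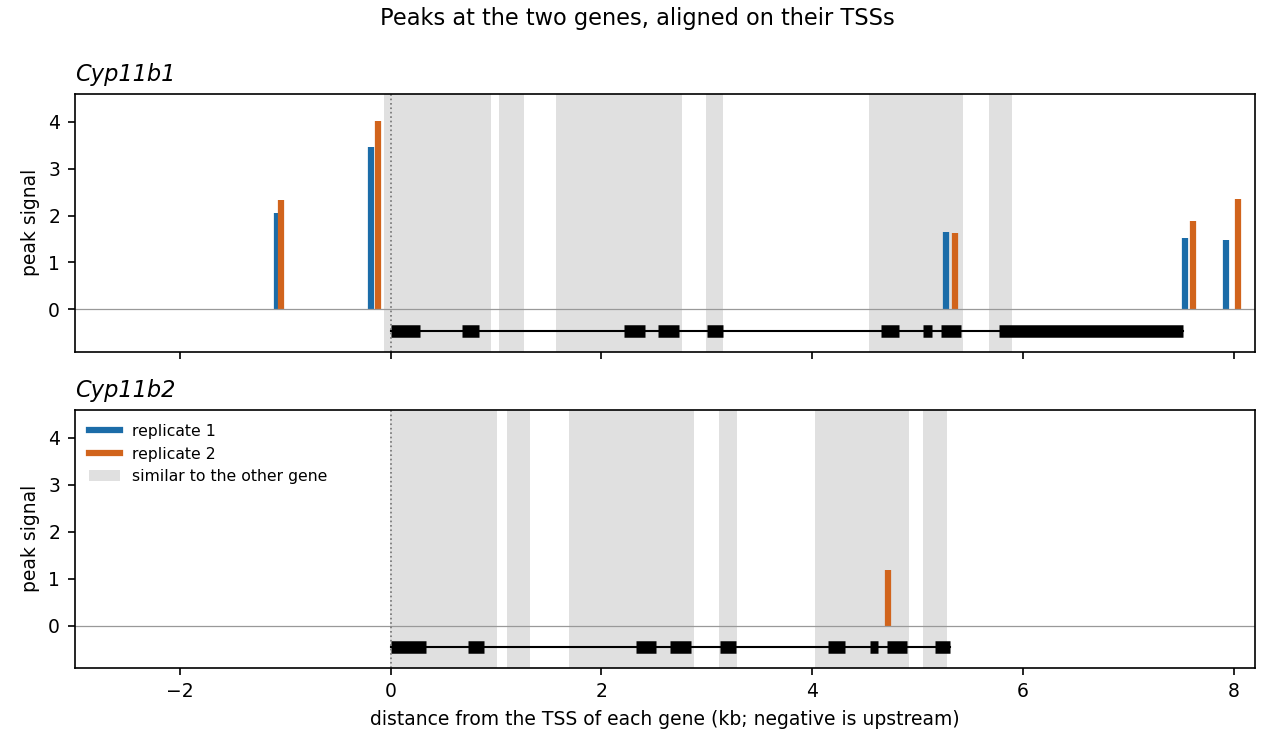
Peaks at Cyp11b1 (top) and Cyp11b2 (bottom) against the distance from the TSS of each gene in kb, negative values upstream. Bar height is the deposited signal of a peak, with bars at peak midpoints and the pools drawn side by side; black boxes are exons and grey bands are stretches of similar sequence in the other gene. Cyp11b1 has bars of 3.47 and 4.01 at its TSS and of 2.05 and 2.33 further upstream, and Cyp11b2 has a bar of 1.18 in replicate 2 alone, over exons 7 and 8.

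The sequence shared by the genes ends close to their starts. The 5′ block of similarity covered 1027 bp at 90.4% identity and ended 68 bp upstream of the Cyp11b1 TSS and 5 bp upstream of the Cyp11b2 TSS. Of the 320 bp of the Cyp11b1 promoter peak, 70 bp, or 21.9%, aligned with Cyp11b2. The open sequence at Cyp11b1 is therefore mostly sequence with no aligned counterpart at Cyp11b2. All 32-base words in the 250 bp upstream of either TSS were unique in the genome. Within 1 kb of the TSS on both sides the share was 77.6% for Cyp11b1 and 75.9% for Cyp11b2. What these shares mean for peak calling was not tested.

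In replicate 2 both genes had a peak at exon 8, and these regions had the lowest share of unique sequence in the window. Replicate 2 had a peak of signal 1.18 over exons 7 and 8 of Cyp11b2 (chr15:74851501-74851758), and replicate 1 had none there. Of its 258 bp, 255 aligned with Cyp11b1 at 93.3% identity, at chr15:74836315-74836572. The Cyp11b1 peak of replicate 2, chr15:74836216-74836420, covered exon 8 alone. The aligned part in exon 7 thus had no Cyp11b1 peak in that pool. In replicate 2 the lowest FDR was 1.68e-05 in the Cyp11b2 peak and 0.00362 in the Cyp11b1 region. The Cyp11b2 peak was in the shorter deposited peak list of that pool and the Cyp11b1 peak was not. In replicate 1 the order was the other way, with 1.3e-04 in the Cyp11b1 region and 0.0376 in the Cyp11b2 region. Only 68.2% of the 32-base words of the Cyp11b2 peak were unique. For the Cyp11b1 region, taken over both pools, the share was 74.3%, against 100% in 17 of the 21 regions of the window. How far reads from one gene were placed on the other was not tested. A gap-free stretch of exon 8 that starts at the edge of the Cyp11b2 peak is printed to show how few bases separate the genes there, with the bases that differ in capitals. Both are on the minus strand in mm10, at chr15:74836315-74836405 for Cyp11b1 and chr15:74851501-74851591 for Cyp11b2.
Cyp11b1 exon 8: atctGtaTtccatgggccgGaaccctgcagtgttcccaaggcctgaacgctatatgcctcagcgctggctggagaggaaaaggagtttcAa
Cyp11b2 exon 8: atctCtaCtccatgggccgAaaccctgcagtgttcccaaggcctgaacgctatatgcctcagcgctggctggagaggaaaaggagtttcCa

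These 91 bp differ at 4 positions. Both regions over exons 7 and 8, taken over both pools, also held the letters CAAGGTCA, a match to the consensus of the steroidogenic factor NR5A1 (SF-1). The matches lay in the intron between these exons, at 5197 bp downstream of the Cyp11b1 TSS and 4686 bp downstream of the Cyp11b2 TSS. Replicate 2 listed a footprint over the match in Cyp11b1, and at the match in Cyp11b2 it listed one within 10 bp but not over it. Replicate 1 listed no footprint within 10 bp of either match.

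Most of the peak signal of the locus lay upstream of Cyp11b2. The 50.001 kb on that side held 5 of 12 peaks in replicate 1 and 11 of 21 in replicate 2, with 58.6% and 61.2% of the summed signal of the window. The 9.367 kb from the Cyp11b1 TSS to the end of Cyp11b2 held 2 peaks in each pool and 17.7% and 14.4% of the signal. The body of Cyp11b1 held 5.31% and 3.68%, the body of Cyp11b2 held 0% and 2.66%, and the far side towards Gml2, Gml and Ly6k held 18.3% and 18.0%. Peaks on the upstream side were assigned to no gene, since accessibility does not show which promoter a region acts on.

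**Figure D2:**
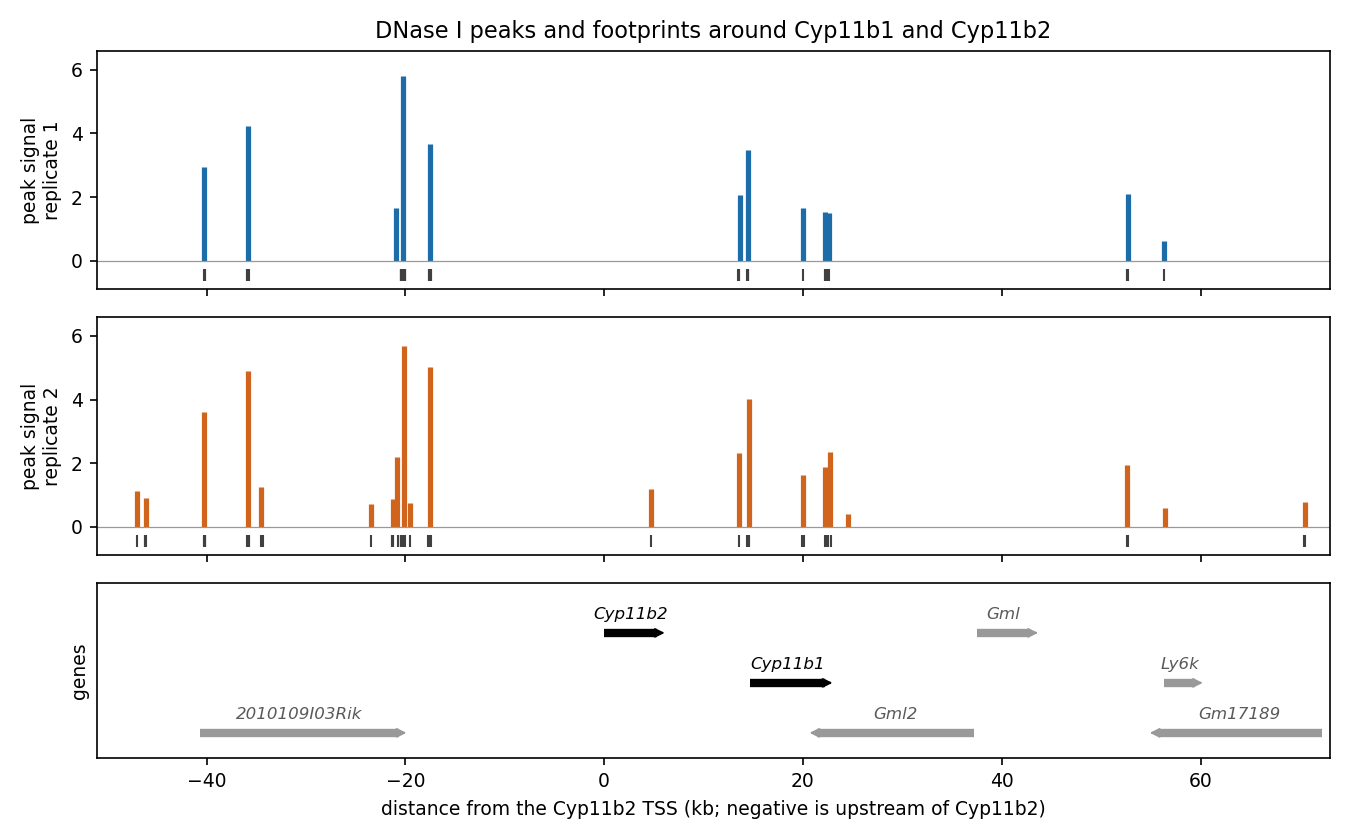
Peaks of replicate 1 (top) and replicate 2 (middle) across the window, as the deposited signal per peak against the distance from the Cyp11b2 TSS in kb, with footprints as ticks under the axis and genes with their direction (bottom). The tallest bars, 5.80 and 5.68, stand at -20.2 kb, and no bar stands between the -17.5 kb region and the Cyp11b2 TSS at 0.

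The strongest region of the window lay at -20.2 kb from Cyp11b2 (chr15:74876341-74876760). It reached 5.80 in replicate 1 and 5.68 in replicate 2 (5.74 ± 0.0848, SD, n = 2), higher than 97.3% and 96.4% of all peaks and higher than the Cyp11b1 promoter in both pools. It held 8 footprints in either pool, 5 of those of replicate 1 overlapping one of replicate 2. Of all shared regions, meaning merged peaks with a peak of each pool, 97.7% had fewer footprints in replicate 1 and 97.1% in replicate 2. The region is 420 bp long, against a median of 240 bp for all shared regions, and footprints were counted over all of it. The replicate 2 peak covered chr15:74876361-74876620 alone, so some replicate 2 footprints, repeated ones among them, lay outside that peak. These counts were not adjusted for length or signal. The region at -17.5 kb (chr15:74873681-74874000) followed with 3.66 and 5.03 and with 6 and 7 footprints, 4 of them in both pools. The region at -35.8 kb (chr15:74892001-74892260) had 4.22 and 4.91, with 6 and 7 footprints and 5 in both pools. A region at -40.2 kb (chr15:74896421-74896640) had 2.96 and 3.61. These 4 and the Cyp11b1 promoter were the 5 regions of the window above 90% of all peaks in both pools. The order of the -17.5 and -35.8 kb regions differed between pools, so they are not separated by these data.

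The 3 strongest upstream regions and the -1.057 kb region are printed over the bases covered by the peaks of both pools, because 3 of them are the strongest regions and the other stands next to the Cyp11b1 promoter. They are from mm10, minus strand, in the direction of Cyp11b1 and Cyp11b2 transcription. Capitals mark matches on either strand to TGANTCA for AP-1, AGATAA for GATA factors and CAAGGTCA for NR5A1. They also mark the NR5A1 variant CAAGGCCA and the E-box CAGCTG. Their positions are chr15:74842561-74842840, chr15:74873721-74874000, chr15:74876361-74876620 and chr15:74892001-74892260.
Cyp11b1 -1.057 kb region: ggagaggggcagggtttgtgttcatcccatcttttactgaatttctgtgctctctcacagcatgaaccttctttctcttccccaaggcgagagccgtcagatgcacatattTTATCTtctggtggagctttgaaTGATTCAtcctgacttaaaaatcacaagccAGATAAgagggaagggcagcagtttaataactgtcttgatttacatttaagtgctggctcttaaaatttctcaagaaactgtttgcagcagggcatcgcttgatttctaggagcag
Cyp11b2 -17.5 kb region: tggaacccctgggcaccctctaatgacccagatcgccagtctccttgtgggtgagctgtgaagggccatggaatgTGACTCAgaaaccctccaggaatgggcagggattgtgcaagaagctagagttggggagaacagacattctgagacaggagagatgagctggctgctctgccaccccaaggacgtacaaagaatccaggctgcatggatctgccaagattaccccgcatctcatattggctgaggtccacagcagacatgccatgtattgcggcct
Cyp11b2 -20.2 kb region: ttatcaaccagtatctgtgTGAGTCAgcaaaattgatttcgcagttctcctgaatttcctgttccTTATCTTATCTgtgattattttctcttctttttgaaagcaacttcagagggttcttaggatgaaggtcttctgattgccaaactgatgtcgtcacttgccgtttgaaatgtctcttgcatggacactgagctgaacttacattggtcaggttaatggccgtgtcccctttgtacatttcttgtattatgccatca
Cyp11b2 -35.8 kb region: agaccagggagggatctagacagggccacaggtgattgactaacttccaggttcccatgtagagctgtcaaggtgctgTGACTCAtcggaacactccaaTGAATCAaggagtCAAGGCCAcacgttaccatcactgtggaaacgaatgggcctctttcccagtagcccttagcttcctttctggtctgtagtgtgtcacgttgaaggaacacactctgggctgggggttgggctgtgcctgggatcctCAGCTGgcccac

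The -20.2 kb region held the widest footprints of the window. One of 33 bp in replicate 1 and 32 bp in replicate 2 lay at chr15:74876452-74876485, over the letters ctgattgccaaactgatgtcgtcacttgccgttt on the minus strand, which matched none of the motifs searched. The other, of 31 and 32 bp at chr15:74876576-74876609, lay over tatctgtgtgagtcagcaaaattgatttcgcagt and covered the AP-1 match. Footprints of at least 30 bp were 4.44% of those in the window in replicate 1 and 3.39% in replicate 2, against 2.63% and 3.35% of all footprints. In the -40.2 kb region a footprint of 24 bp in both pools covered chr15:74896492-74896516, ctacatgcgccccctggtggcaacg on the minus strand, which holds a match to the consensus of CTCF, a protein that anchors chromatin loops.

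In all, the window held 45 footprints in replicate 1 and 59 in replicate 2 (52 ± 9.90, SD, n = 2), of 272595 and 319381 deposited. Of these 53.3% and 39.0% overlapped one of the other pool, against 51.1% and 42.6% of all footprints. A share of 91.1% and 86.4% lay in a peak of the same pool, against 90.6% and 89.5% of all. Median width was 9 and 8 bp, against 9 bp for all footprints in both pools. By these measures the window's footprints were close to those of the genome. The footprint value was constant in the deposited lists, so footprints could not be ranked.

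Of 13 motifs searched on both strands, AP-1 was found in the most regions. It matched in 6 of the 12 regions shared by both pools, against 23.5% of all 96584 shared regions, whose median length of 240 bp was below the 319.5 bp of the window's regions. Within 151 bp at the midpoint it matched in 3 of 12, against 18.9%. Of 7 AP-1 matches 4 overlapped a footprint in both pools, at -1060 bp from Cyp11b1 and at -20280, -35840 and -35861 bp from Cyp11b2. At -35840 bp the footprints of the pools did not overlap each other, so no footprint was repeated there. Over all 13 motifs, 7 of 26 matches in the shared regions overlapped a footprint in both pools. For AP-1 matches genome-wide the share with footprints was not computed. GATA matched in 4 of 12 regions (12.7% of all), CTCF in 3 (14.9%), E-box in 3 (19.6%), SP/KLF (GGGCGG) in 2 (19.9%), NFI in 1 (3.24%) and the TATA box (TATAAA) in 1 (7.92%). NR5A1 matched in 2 (13.3%), the exon 7 and 8 peak of Cyp11b1 and the -35.8 kb region, and in the latter the match overlapped a footprint in both pools. The match in the former lay inside the peak of replicate 1 and outside the narrower peak of replicate 2. In the -35.8 kb region an AP-1 match and the NR5A1 match lay next to each other, -35840 and -35827 bp from the Cyp11b2 TSS.

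NR4A (AAAGGTCA), CRE (TGACGTNA), the glucocorticoid response element, MEF2 and the nuclear receptor repeat DR1 matched in 0 of 12 shared regions. Their shares over all shared regions were 3.09%, 2.15%, 1.28%, 3.38% and 0.0621%. NR4A factors and CREB are known regulators of these genes, and a missing match says only that these letters are not in these windows. A CRE match, TGACGTGA, occurred 2 times in the region at -34.5 kb from Cyp11b2 (chr15:74890672-74890908), which had a peak in replicate 2 alone, at a signal of 1.26. A footprint of replicate 2 overlapped the match at -34367 bp, and it also overlapped an AP-1 match, TGAGTCA, at -34371 bp.

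The pools repeated the strongest regions, and the regions of 1 pool alone were among the weaker ones. Of the 12 peaks of replicate 1, 12 were met by a peak in the other pool, against 84.6% of its peaks genome-wide. Of the 21 of replicate 2, 12 were, or 57.1%, against 67.9%. The 9 regions of replicate 2 alone had signals of 0.400 to 1.26. Weak regions were also repeated, since the Ly6k promoter, at 0.632 and 0.584, was found in both pools. In the shared regions replicate 2 over replicate 1 had a median log2 ratio of 0.21, from -0.11 to 0.67, with an SD of 0.24 over regions. The median over all shared regions was 0.35 with an SD of 0.37 over regions, and 9 of the 12 lay below that median and 3 above it. The ratio was 0.21 at the Cyp11b1 promoter, -0.03 in the -20.2 kb region and 0.46 in the -17.5 kb region.

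**Figure D3:**
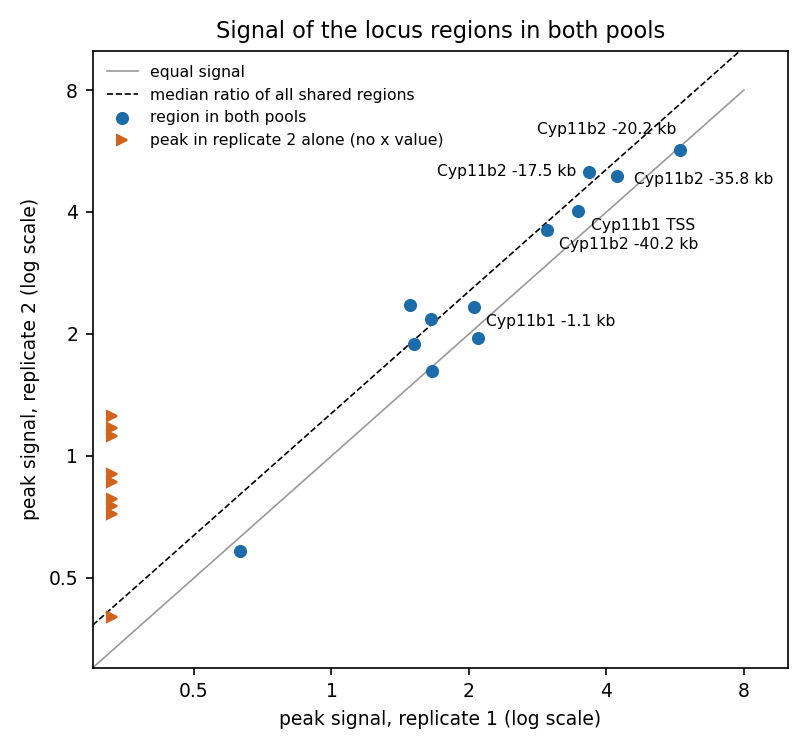
Signal of the window's regions in replicate 1 (x axis) and replicate 2 (y axis), both on log scales, with the line of equal signal (solid) and the median ratio of all shared regions (dashed). The 12 regions found in both pools lie along the lines, and the 9 regions with a peak in replicate 2 alone are drawn as triangles at the left edge, at 0.400 to 1.26.

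Compared with all peaks, those of the window were strong. Its median signal was 2.07 in replicate 1 and 1.62 in replicate 2, against 0.699 and 0.727 for all peaks, and 11 of the 12 shared regions were above the median of all peaks in both pools. Peaks covered 3.02% and 3.91% of the window, against 0.894% and 1.13% of the genome. In peaks per kb over the gene span with its flanks, 66.0% of protein-coding genes had fewer in replicate 1 and 87.1% in replicate 2, the pool with more peaks genome-wide. Within 50 kb of either TSS lay 10 shared regions, against a median of 7 for protein-coding genes and of 14 for 19 corticosteroid pathway genes, of which 2 had fewer than 10. For Cyp11b2, without a promoter peak, this can be set beside the 7387 genes that also had none in either pool. Their median was 2 shared regions within 50 kb, and 88.1% of them had fewer than Cyp11b2, against 70.6% of all protein-coding genes. By definition these genes lack peaks at their own promoters. The 10 regions counted for Cyp11b2 included the promoter peak of Cyp11b1 and the -1.057 kb peak beside it.

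Among neighbours in the window, Ly6k had a promoter peak in both pools, at 0.632 and 0.584. Gml, Gml2, 2010109I03Rik and the antisense transcript Gm17189 had none. The open regions from -20.9 to -40.2 kb overlapped the gene record of 2010109I03Rik, and its annotated TSS in the basic set had no peak within 1 kb. That TSS is at chr15:74881704, while the record of this minus-strand gene reaches chr15:74897021, near the -40.2 kb region. Starts outside the basic set were not examined.

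Corticosteroid pathway genes served for comparison, and 17 of 19 had a peak at the promoter in each pool, against 61.9% of protein-coding genes. Star, the cholesterol carrier of the mitochondrion, had 5.44 and 6.52. Cyp11a1, which cleaves the cholesterol side chain, had 4.45 and 5.20, and Cyp21a1, the 21-hydroxylase, had 5.27 and 4.72. The genes of the electron carriers that serve both member enzymes, Fdxr and Fdx1, had 12.6 and 13.8 and 4.90 and 5.49. Cyp11b1, at 3.47 and 4.01, was below 9 of the 19 genes in both pools. Lower values were found at the corticotropin receptor gene Mc2r with 1.16 and 1.54, and at the steroidogenic factor gene Nr5a1 with 2.55 and 3.36. Beside Cyp11b2 the list had 1 gene without a promoter peak in either pool, the dehydrogenase gene Hsd3b1, with 20 shared regions within 50 kb. The peak nearest to the Hsd3b1 TSS lay 1374 and 1394 bp away, just outside the 1 kb limit, against 13478 and 4560 bp for Cyp11b2. Nr0b1, a repressor of steroid genes on the X chromosome, had a peak in replicate 2 alone.

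**Figure D4:**
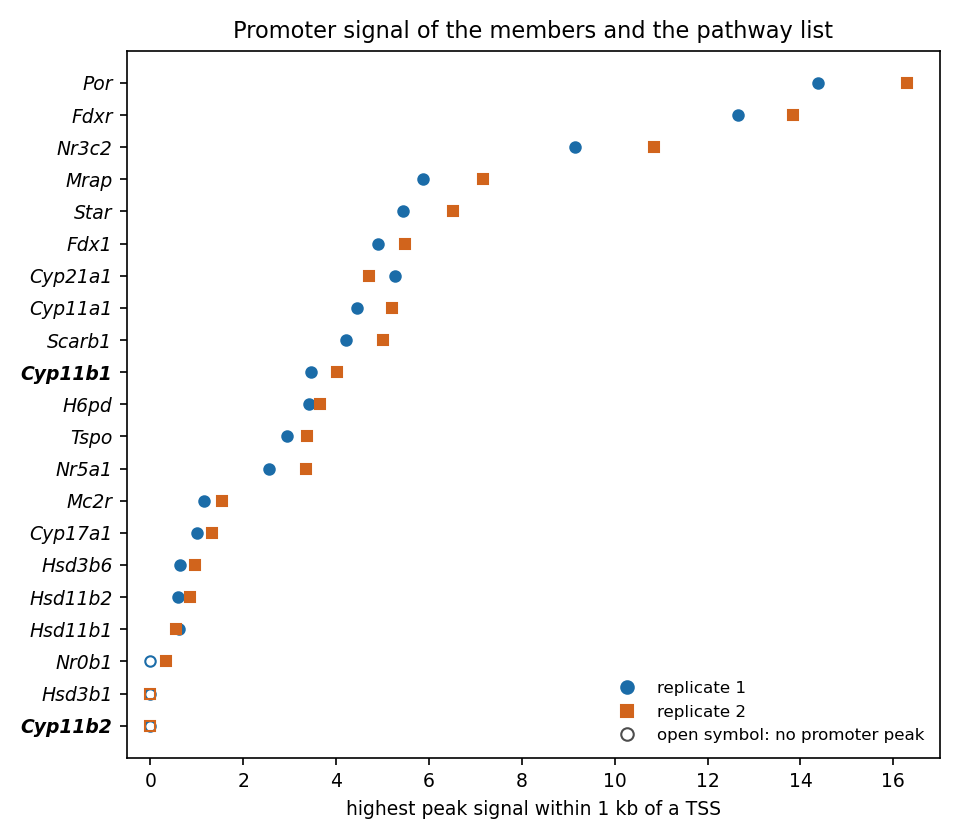
Highest signal of a peak within 1 kb of a TSS, on the x axis, for Cyp11b1 and Cyp11b2 (bold) and 19 corticosteroid pathway genes, ordered by the mean of the pools. Circles are replicate 1 and squares replicate 2, and open symbols at 0 stand for genes without a promoter peak; Cyp11b1 lies mid-list at 3.47 and 4.01, and Cyp11b2 is at the bottom with Hsd3b1.

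Summed over the gene and 50 kb on either side, peak signal per kb was 0.223 and 0.312 for Cyp11b1 and 0.290 and 0.406 for Cyp11b2. These windows overlap, so their values are not independent. By the mean absolute difference in log2 of this value over both pools, the list genes closest to Cyp11b1 were Hsd11b2 (0.06), Hsd3b1 (0.11) and Nr5a1 (0.22). Those closest to Cyp11b2 were Tspo (0.04), Cyp17a1 (0.13) and Mrap (0.14).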

How the data were processed

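DNase-seq libraries of 2 adrenal gland pools were analysed from deposited files on mm10 (GRCm38). Per the labels and the deposited readme texts, peaks, footprints and the false discovery rate table come from the filtered alignments of each library, so calls were made per pool. For the aligner and the callers, name and settings are not stated in these sources. The authors' deposited signal per peak is never negative, and its scaling is not stated. The deposited table gives an adjusted p-value (FDR) per interval and lists values under 0.05. The deposited footprints carry 1 constant, so only their positions were used. Depth is unknown, and no interval for counting error was computed. Reads of the F1 cross carry CAST/EiJ alleles, and the effect of aligning them to the reference was not tested.

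The longer peak list of each pool was used. Shared regions join overlapping peaks and contain both pools, with an overlap of at least 1 bp. Genes came from GENCODE M21 basic, and sequence came from the RefSeq GRCm38 assembly, patch 6. Similarity was searched with blastn 2.17.0, with a minimum of 100 bp between the genes. Scripts ran in Python 3.11.15 and were tested on simulated data. Motifs were matched by consensus. Named genes were the members, all genes in the window, examples from the cell type marker lists and a list of 19 pathway genes, a further gene of that list being not reported here. Named regions were those at or nearest to the TSSs and the 10 strongest shared ones, and other regions were named after their values were seen. Members, lists and motifs were chosen with earlier results of these data known. The promoter table of RefSeq holds no entry for Cyp11b1 or Cyp11b2. The alternatives tried were the shorter list, a signal threshold, equal peak numbers, overlap, flank, promoter width, footprint class, motif window and leaving out a pool.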

Additional observations from a re-analysis of the deposited data

How the results depend on the processing

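Of 59 values for 8 results under alternative settings, 47 stayed within the limits set for them, 12 moved and 0 reversed in direction. The promoter results moved under no setting run. Cyp11b1 kept a signal of 3.47 to 4.01 when either pool was left out. Cyp11b2 had no promoter peak, listed as 0, under every setting run, among them the RefSeq start, which was chosen after seeing the data. Most of these settings could not have given Cyp11b2 a peak. They removed peaks, narrowed the promoter or widened it to 2 kb, short of the nearest peak at 4560 bp. These zeros are counted among the 47 values and say nothing about robustness. The median log2 ratio of the pools ranged from 0.21 to 0.26. By construction, counts moved with the flank. Peaks in the window averaged 16.5 and became 10.5 with 25 kb and 50.5 with 100 kb, shared regions went from 12 to 26 with 100 kb, and footprints went from 52 to 34 and 115. With 100 kb, 93.0% of genes had fewer peaks per kb, against 76.5%. Footprints found in both pools averaged 23.5. Shared regions with an NR5A1 match numbered 2 and became 1 with the shorter list, with 25 kb or near the midpoint, and 4 with 100 kb. Leaving out a pool gave 12 to 21 peaks, 12 to 21 regions, 45 to 59 footprints, 66.0% to 87.1% of genes with fewer peaks, and 2 NR5A1 regions either way, though not the same 2, since replicate 1 had the exon peak of Cyp11b1 and replicate 2 that of Cyp11b2 beside the -35.8 kb region, and the ratio could not be computed from 1 pool. No paired analysis was possible because the study has 1 group. Depth is unknown, so an absent peak at Cyp11b2 says only that none was called.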

Other observations

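Of the 9 regions with a peak in replicate 2 alone, 2 were also in the shorter list of that pool. They were the one over exons 7 and 8 of Cyp11b2 with a signal of 1.18 and the one at -34.5 kb from Cyp11b2 with a signal of 1.26. In the former, replicate 1 listed 18 bp with an FDR under 0.05 and replicate 2 listed 258 bp. In the latter, replicate 1 listed 2 bp and replicate 2 listed 237 bp. Repeat-masked sequence made up 4.65% of the former and 0% of the latter.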
